A study of Homo sapiens with 6 samples.

Results

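The MHC class I antigen presentation genes described here are 9 of the 19491 genes in the expression tables of PC-3 cells: the heavy chain genes HLA-B, HLA-C, HLA-E and HLA-F, the light chain gene B2M, the peptide transporter genes TAP1 and TAP2, and the immunoproteasome genes PSMB8 and PSMB9. They were chosen by name, with earlier results of these data known, and each name occurred once. PC-3 is an established human prostate cancer cell line that grows without androgen. The cells were left untreated (control) or were exposed for 48 h to GPNA (L-γ-glutamyl-p-nitroanilide, 1 mM in the study's methods) or BenSer (O-benzyl-serine, 10 mM), each of them an inhibitor of the glutamine transporter ASCT2, and total RNA was sequenced to ask what the inhibitors do to gene expression. The 3 groups share the cell line and the medium, and a single cell line cannot stand for prostate tumours, which also hold immune and stromal cells. The study also cites inhibition of the amino acid transporter LAT1 by BenSer in oocytes, and proposes that BenSer has effects beyond ASCT2. The inhibitors differ in dose by design and may differ in target, which cannot be told apart. Their values are therefore set side by side.

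Cells display fragments of their own proteins on class I molecules, where CD8+ T cells and natural killer cells read them. The proteasome cuts the proteins, and its immune form exchanges catalytic subunits for PSMB8, PSMB9 and PSMB10. The TAP1 and TAP2 proteins form the pump that carries peptides into the endoplasmic reticulum, where a heavy chain, B2M and a peptide assemble. In most cells these genes are inducible by interferons through STAT and IRF factors and by the class I transactivator NLRC5. Of the 9 genes, 8 lie in the major histocompatibility complex on chromosome 6, and B2M lies on chromosome 15.

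Each group had 2 labelled libraries, written here as columns 1 and 2, with 23227180 and 23077986 reads in control, 25798967 and 25452745 in GPNA and 32178154 and 31943025 in BenSer. Columns of the same group were close to what read sampling alone gives: chi-square over its degrees of freedom was 1.06, 1.04 and 1.05 in control, GPNA and BenSer, against 5.33 to 20.6 between columns of different groups. They were therefore counted as 1 sample a group, and no p-value for a treatment could be given. The excess over read sampling was small but present in control, GPNA and BenSer (chi-square p of 1.99e-08, 4.48e-05 and 1.26e-05). The differences below have no replicate check, and the 95% intervals cover counting error only, without this excess. All 5 epithelial markers were present, at a summed 1245 to 1366 CPM (reads per 1000000 of the library). Of 10 leucocyte markers only CD8A was among the genes analysed, at 0.303 to 0.466 CPM. Of the markers of luminal prostate cells, TMPRSS2 is given here, at 16.4 to 24.3 CPM with the highest values in BenSer. Of 5 fibroblast markers 3 were present at a summed 4.68 to 8.01 CPM, highest in control, and of 4 endothelial markers only KDR, at 2.09 to 4.32 CPM, highest in BenSer. The part of these cell markers in the results was not tested. In bulk RNA, fewer cells that carry a transcript and less of it per cell cannot be told apart.

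Promoters are shown for 5 genes on which the comparison turns. Of these, the windows of HLA-B, B2M, TAP1 and TAP2 hold a short sequence known from interferon-inducible promoters, and the PSMB9 window lacks it. The RefSeq promoter table (built on GRCh38.p14) gives 250 bases before to 50 bases after each start, and it held 10 windows for 8 of the 9 genes. HLA-E was not among them. Each window matched the GRCh37 build used for these data at 1 place. Capitals mark AANNGAAA on either strand, a short form of the interferon-stimulated response element that was searched after a first scan with the longer AAANNGAAA, of which it forms part. The windows of HLA-B (chr6:31324907-31325206, minus strand), B2M (chr15:45003465-45003764, plus), TAP1 (chr6:32821432-32821731, minus), TAP2 (chr6:32806467-32806766, minus) and PSMB9 (chr6:32821719-32822018, plus) read as follows.
HLA-B: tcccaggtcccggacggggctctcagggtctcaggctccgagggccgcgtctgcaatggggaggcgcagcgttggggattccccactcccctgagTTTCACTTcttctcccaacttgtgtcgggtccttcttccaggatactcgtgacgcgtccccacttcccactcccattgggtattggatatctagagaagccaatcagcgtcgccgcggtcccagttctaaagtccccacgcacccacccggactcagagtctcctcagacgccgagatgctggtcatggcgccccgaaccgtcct
B2M: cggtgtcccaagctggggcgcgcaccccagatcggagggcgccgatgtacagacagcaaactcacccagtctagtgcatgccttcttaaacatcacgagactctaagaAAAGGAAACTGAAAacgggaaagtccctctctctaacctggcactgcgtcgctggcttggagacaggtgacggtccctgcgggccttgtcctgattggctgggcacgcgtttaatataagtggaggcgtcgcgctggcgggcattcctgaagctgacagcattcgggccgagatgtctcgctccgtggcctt
TAP1: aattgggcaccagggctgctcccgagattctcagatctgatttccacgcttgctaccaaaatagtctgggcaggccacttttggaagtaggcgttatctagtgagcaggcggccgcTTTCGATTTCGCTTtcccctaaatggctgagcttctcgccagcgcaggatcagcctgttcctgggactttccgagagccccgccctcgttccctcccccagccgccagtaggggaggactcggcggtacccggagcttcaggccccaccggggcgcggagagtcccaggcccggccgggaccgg
TAP2: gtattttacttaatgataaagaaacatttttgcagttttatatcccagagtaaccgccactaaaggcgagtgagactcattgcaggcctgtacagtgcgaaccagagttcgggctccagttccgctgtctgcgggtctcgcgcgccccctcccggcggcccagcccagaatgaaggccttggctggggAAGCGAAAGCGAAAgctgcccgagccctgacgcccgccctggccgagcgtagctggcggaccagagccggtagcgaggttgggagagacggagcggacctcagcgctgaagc
PSMB9: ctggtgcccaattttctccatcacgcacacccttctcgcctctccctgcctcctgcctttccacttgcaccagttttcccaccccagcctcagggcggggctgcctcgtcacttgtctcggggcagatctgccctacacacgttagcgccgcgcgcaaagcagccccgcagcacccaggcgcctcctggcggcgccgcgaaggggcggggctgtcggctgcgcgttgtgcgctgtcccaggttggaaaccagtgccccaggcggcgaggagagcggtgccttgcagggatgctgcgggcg

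The capitals occurred in 7 of the 10 windows, 1 in each of 7 genes, and in 22.8% of all 35116 promoter windows. The longer AAANNGAAA occurred in 5 of the 10 windows and in 10.5% of all windows. TAP1 and PSMB8 have 2 windows each and so more chances of a match. TAP2 held the short form at 62 and 56 bases before its start, and TAP1 held it at 134 and 128 bases before the start of the window shown. PSMB9 lacked it. The RefSeq start of PSMB9 lies 488 bases from that TAP1 start on the other strand. From these starts both genes are read away from a shared stretch. Of the other letters searched on both strands, TGACGC (part of the X2 box that NLRC5 complexes use) occurred in 3 windows (HLA-B, HLA-C and TAP2), against 9.14% of all windows, and the inverted CCAAT box ATTGG occurred in 6 windows, against 34.6%. GGGNNTTNC, which resembles an NF-κB site, occurred in 4 windows, against 16.2%, and TTCNNNGAA, the GAS core of interferon-gamma responsive promoters, in TAP1 and PSMB8, against 7.66%. A match of letters is a description and not a bound site.

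Per kilobase of the canonical transcript, B2M stood far above the other genes in control cells, at 296 CPM per kb, followed by HLA-C (32.1), HLA-E (21.6), HLA-B (12.3), PSMB8 (4.67), TAP1 (3.48), TAP2 (2.07), PSMB9 (1.91) and HLA-F (0.832). Only TAP2 and PSMB9 were neighbours in this order that could not be separated, since the columns of PSMB9 spanned 1.49 to 2.33 CPM per kb and those of TAP2 lay at 2.08 and 2.06. In BenSer cells the order of the lower genes differed: TAP1 (7.46 CPM per kb) stood above PSMB8 (6.24), and PSMB9 (4.001) above TAP2 (1.74). PSMB9 also stood above TAP2 in GPNA cells (2.55 against 2.09). The heavy chains and B2M kept their places in all 3 groups.

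**Figure D1:**
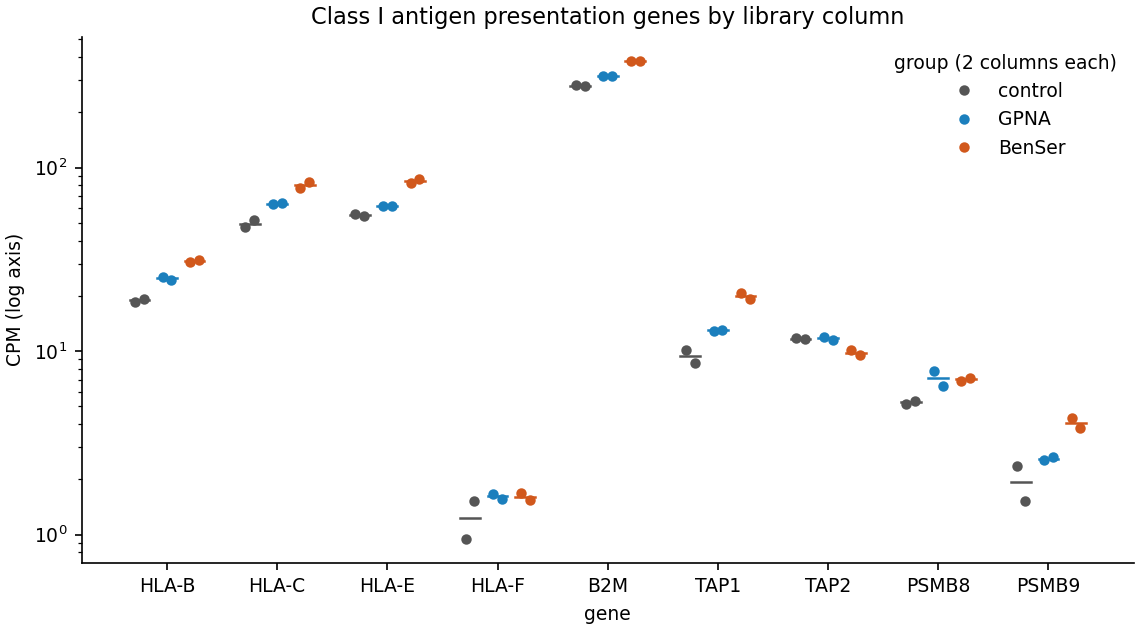
Expression of the 9 genes in CPM on a log axis. Each point is 1 of the 2 library columns of a group (control grey, GPNA blue, BenSer orange) and each bar is their mean. TAP1 climbs from 8.58 and 10.1 CPM in control to 19.3 and 20.8 CPM in BenSer, while TAP2 lies at 11.6 and 11.7 CPM in control and at 9.49 and 10.1 CPM in BenSer.

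Relative to control, 5 of the 9 genes were at least 1.5-fold higher in BenSer (HLA-B, HLA-C, HLA-E, TAP1 and PSMB9) and none was as much lower, and no gene was 1.5-fold different in GPNA. Differences are given in log2(mean CPM + 1), with a filter of a mean of 5 reads in either group, and on this scale they understate the change of low genes. Among all genes tested, 1.96% were called higher and 1.58% lower at this fold in BenSer, and 0.34% higher and 0.0637% lower in GPNA. The median difference of the 9 genes was 0.61 in BenSer and 0.29 in GPNA, and that of all genes was -0.03 in each. Both comparisons use the same control columns. With TMM scaling the calls among all genes in BenSer were 432 higher and 219 lower, in place of 371 and 300, and the same 5 of the 9 genes were called.

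**Figure D2:**
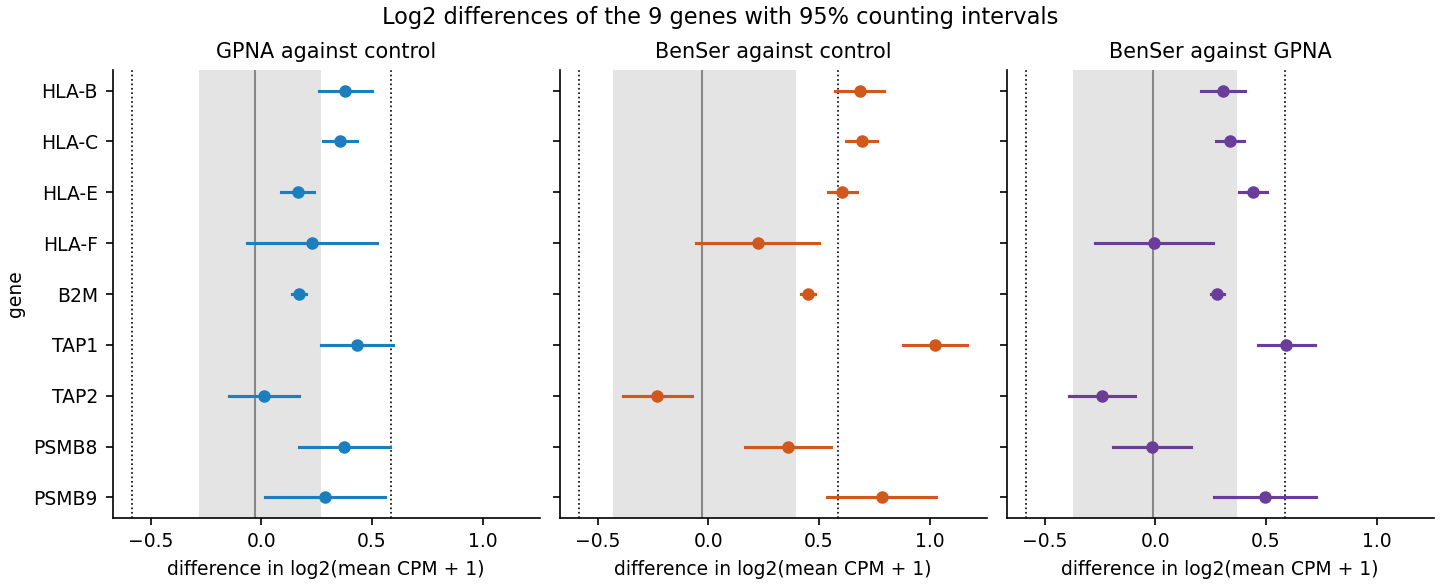
Differences in log2(mean CPM + 1) for the 9 genes in the 3 comparisons. Points are the differences, bars the 95% intervals from read counts, dotted lines 1.5-fold, the grey line the median of all genes and the grey band their 5th to 95th percentile. In BenSer against control 5 points lie beyond the upper dotted line and TAP2 lies below 0.

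The classical heavy chains present peptides to CD8+ T cells. HLA-B (chr6:31321649-31334844, minus strand) was measured at 18.6 and 19.3 CPM in control, 25.2 and 24.5 CPM in GPNA and 30.8 and 31.2 CPM in BenSer. The groups did not overlap, and the log2 difference from control was 0.38 (95% interval 0.26 to 0.50) in GPNA and 0.68 (0.57 to 0.80) in BenSer. HLA-C (chr6:31236526-31239907, minus) had 47.2 and 51.7 CPM in control, 63.1 and 64.1 CPM in GPNA and 77.9 and 83.2 CPM in BenSer. Its log2 differences were close to those of HLA-B, at 0.36 (0.28 to 0.43) in GPNA and 0.69 (0.62 to 0.76) in BenSer. Reads of HLA-B stood to reads of HLA-C at 0.383 in control, 0.391 in GPNA and 0.385 in BenSer, with intervals that overlapped throughout.

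HLA-B and HLA-C together stood to B2M at 0.245 (0.236 to 0.255) reads in control, 0.282 (0.272 to 0.291) in GPNA and 0.292 (0.285 to 0.300) in BenSer, a ratio that is free of library scaling. It lay higher in either inhibitor than in control, and the GPNA and BenSer intervals overlapped. The HLA genes are near-identical copies in part and counting could split reads between them, so the level of each is uncertain. HLA-B and HLA-F also share 364 exonic bases each with a pseudogene annotated on the other strand.

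The non-classical heavy chains bind a narrow set of peptides or serve as ligands of natural killer cell receptors. HLA-E (chr6:30457286-30461971, plus), the ligand of the NKG2A receptor, had 55.5 and 54.3 CPM in control, 62.0 and 61.4 CPM in GPNA and 82.1 and 86.2 CPM in BenSer. The log2 difference was 0.16 (0.09 to 0.24) in GPNA and 0.61 (0.54 to 0.67) in BenSer, just past 1.5-fold. Without BenSer replicate 2 it was 0.57 and no longer called. Reads of HLA-E stood to reads of HLA-C at 1.11 (1.05 to 1.18) in control, 0.971 (0.924 to 1.02) in GPNA and 1.05 (1.01 to 1.09) in BenSer. The GPNA interval lay below that of control, and the BenSer interval overlapped both. HLA-F (chr6:29690552-29706305, plus) was the lowest of the 9 genes, with 0.947 and 1.52 CPM in control, 1.67 and 1.57 CPM in GPNA and 1.68 and 1.53 CPM in BenSer. It rested on 57, 83 and 103 reads, and its intervals spanned 0 in each comparison with control (-0.06 to 0.52 in GPNA and -0.06 to 0.50 in BenSer). A difference of HLA-F was not detectable at this depth.

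B2M (chr15:45003556-45011049, plus) encodes the light chain that assembles with class I heavy chains. It had 281 and 277 CPM in control, 315 and 314 CPM in GPNA and 382 and 381 CPM in BenSer. With 12922 to 24459 reads a group it was the most precisely measured of the 9 genes, and its log2 difference was 0.17 (0.14 to 0.20) in GPNA and 0.45 (0.42 to 0.48) in BenSer, short of 1.5-fold. In GPNA and BenSer the difference of B2M was smaller than those of HLA-B and HLA-C, as the ratio above shows.

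The transporter subunits, which act as a pair in the protein complex, parted at the RNA level. TAP1 (chr6:32812986-32821593, minus) had 10.1 and 8.58 CPM in control, 12.87 and 13.04 CPM in GPNA and 20.8 and 19.3 CPM in BenSer. Its log2 difference was 0.43 (0.27 to 0.59) in GPNA and 1.02 (0.88 to 1.17) in BenSer, where it ranked 78 from the top of 18976 genes. It was the highest of the 9 genes in both comparisons, but in GPNA this order depended on single columns: without control replicate 2 TAP1 was at 0.33, below HLA-F (0.43), HLA-C (0.42), HLA-B and PSMB8 (0.40 each), and without GPNA replicate 2 PSMB8 (0.49) was above TAP1 (0.42). TAP2 (chr6:32789610-32806516, minus) had 11.7 and 11.6 CPM in control, 12.0 and 11.5 CPM in GPNA and 10.1 and 9.49 CPM in BenSer. Its GPNA columns overlapped those of control, with a log2 difference of 0.01 (-0.14 to 0.17), and both BenSer columns lay below control, with a difference of -0.23 (-0.38 to -0.08).

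Within the same libraries, TAP1 reads stood to TAP2 reads at 0.802 (0.705 to 0.912) in control, 1.10 (0.985 to 1.23) in GPNA and 2.05 (1.86 to 2.26) in BenSer. The 3 intervals did not overlap, and each column lay within them: 2.06 and 2.03 in BenSer, 1.07 and 1.13 in GPNA and 0.864 and 0.739 in control. TAP2 carries AANNGAAA closer to its start than TAP1 does in the window shown above, and the other TAP1 window holds no match. The part of this sequence in the TAP1 and TAP2 values was not tested. TAP1 shares 577 exonic bases with PSMB8-AS1 on the other strand, and TAP2 shares 2023 exonic bases with a readthrough gene on its own strand. The strand setting of the counting is not given in the sources used here, and the part of these overlaps in the TAP1 and TAP2 values was not tested.

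PSMB8 and PSMB9 encode catalytic subunits of the immunoproteasome, and each replaces a constitutive subunit (PSMB5 and PSMB6, respectively). In the gene annotation PSMB9 (chr6:32811913-32827628, plus) spans TAP1 on the other strand, though not with overlap in the exons of either canonical transcript. From its RefSeq start, used above, PSMB9 is read away from TAP1. It had 2.37 and 1.52 CPM in control, 2.56 and 2.63 CPM in GPNA and 4.32 and 3.82 CPM in BenSer. The groups did not overlap, although the control columns differed by 1.56-fold on 55 and 35 reads. Its log2 difference was 0.29 (0.01 to 0.56) in GPNA and 0.78 (0.53 to 1.03) in BenSer. These values rest on the control columns: without control replicate 1 they were 0.51 and 1.01, and without control replicate 2 they were 0.09 and 0.59, the last just past 1.5-fold. PSMB8 (chr6:32808494-32812456, minus) had 5.12 and 5.37 CPM in control, 7.75 and 6.44 CPM in GPNA and 6.90 and 7.14 CPM in BenSer. Here the inhibitors gave like values, with log2 differences of 0.37 (0.17 to 0.58) in GPNA and 0.36 (0.16 to 0.56) in BenSer.

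Set against the constitutive subunit that each replaces, PSMB9 made 0.0438 (0.0350 to 0.0541) reads per PSMB6 read in control, 0.0606 (0.0505 to 0.0722) in GPNA and 0.101 (0.0887 to 0.115) in BenSer. PSMB8 made 0.168 (0.146 to 0.192) reads per PSMB5 read in control, 0.243 (0.216 to 0.273) in GPNA and 0.237 (0.213 to 0.262) in BenSer. For PSMB9 the GPNA interval overlapped that of control. The third inducible subunit, PSMB10, lies outside the histocompatibility complex. It stood to its counterpart PSMB7 at 0.0211 (0.0161 to 0.0271), 0.0196 (0.0148 to 0.0255) and 0.0241 (0.0192 to 0.0299), with intervals that overlapped. PSMB10 rested on 62, 57 and 85 reads, so that a shift could be missed. TAP1 reads stood to PSMB9 reads at 4.81 (3.83 to 6.11) in control, 4.99 (4.14 to 6.06) in GPNA and 4.92 (4.31 to 5.65) in BenSer. No change of this ratio was detectable, but the control value rests on 90 PSMB9 reads, with columns at 4.27 and 5.66. The level of each gene in BenSer was over 2-fold that of control (2.14-fold for TAP1 and 2.10-fold for PSMB9, as ratios of CPM).

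**Figure D3:**
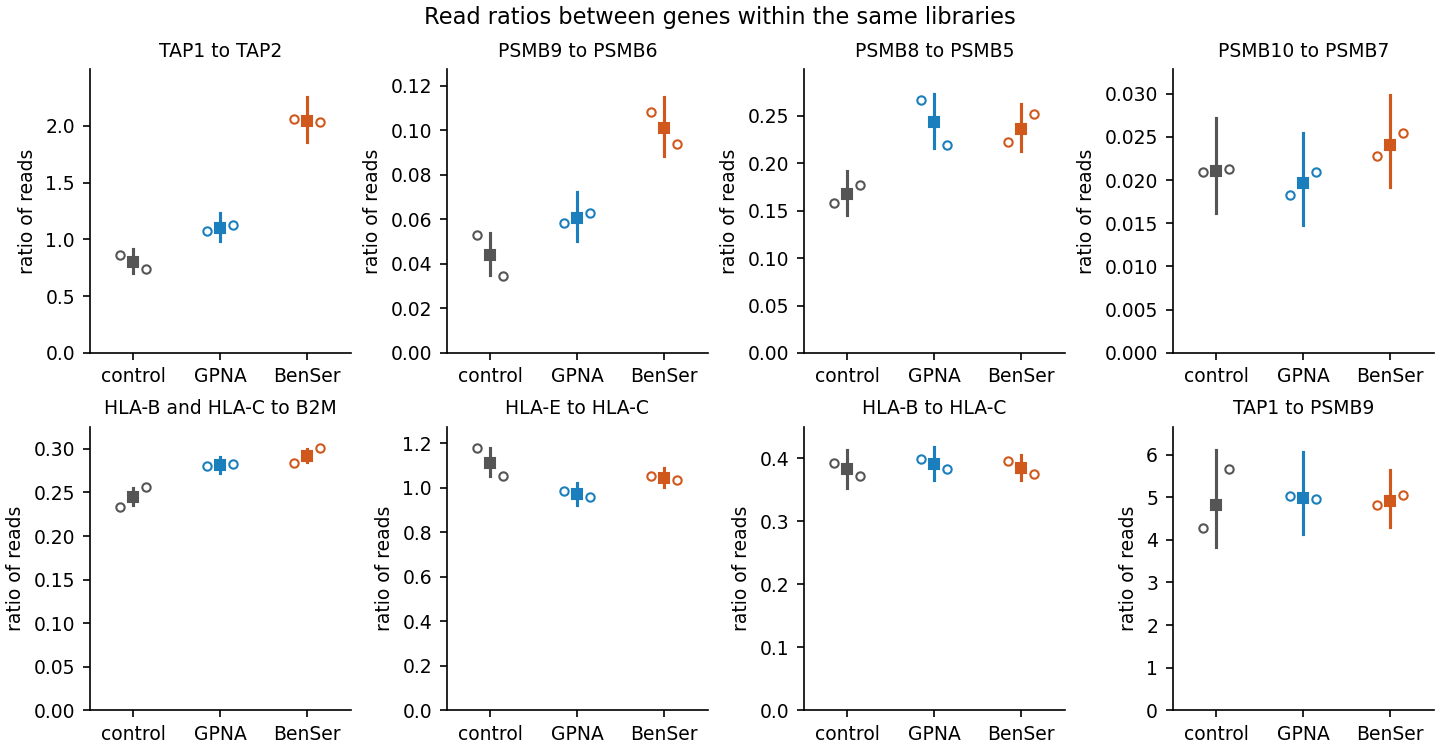
Ratios of reads between pairs of genes within the same libraries, on axes that start at 0. Squares are the ratio over both columns with its 95% counting interval and open circles the columns. TAP1 to TAP2 lies at 0.802, 1.10 and 2.05 in control, GPNA and BenSer, whereas HLA-B to HLA-C and TAP1 to PSMB9 have overlapping intervals in the 3 groups.

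In the direct comparison of BenSer with GPNA, at 10 mM and 1 mM, 6 genes were higher in both BenSer columns than in both GPNA columns and TAP2 was lower in both. Such separation of columns was common: of 92 other genes starting between HLA-F and PSMB9, 33 were higher and 30 lower in this way. The share over all genes was not counted, so the separation is not read as particular to the 9 genes. Of the 9 genes only TAP1 was called, with a log2 difference of 0.59 (0.46 to 0.72), where 1.05% of all genes were called higher and 0.813% lower. The TAP1 call rested on single columns, since the difference was 0.54 without BenSer replicate 1 and 0.583 without GPNA replicate 1, either of them under 1.5-fold. PSMB9 followed at 0.50 (0.26 to 0.73) and HLA-E at 0.44 (0.38 to 0.50), and TAP2 was at -0.24 (-0.39 to -0.09). The intervals of PSMB8 (-0.19 to 0.16) and HLA-F (-0.27 to 0.26) contained 0. The median of the 9 genes was 0.31, against -0.01 for all genes.

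The rest of the class I pathway did not move as a block. Of 20 other pathway genes tested, only ERAP1 was 1.5-fold higher in BenSer and none in GPNA, and the medians were 0.02 in BenSer and -0.03 in GPNA. ERAP1, the aminopeptidase that trims peptides in the endoplasmic reticulum, had means of 32.9, 40.9 and 58.2 CPM in control, GPNA and BenSer, a log2 difference of 0.31 and 0.80. Its partner ERAP2 was at 0.18 and 0.49, and tapasin (TAPBP), which holds class I molecules at the transporter, at -0.09 in GPNA and 0.47 in BenSer. At the other end, the proteasome activator PSME3 was at -0.32 in each and the peptidase THOP1 at -0.23 and -0.35. The general chaperones CALR and CANX lay within 0.06 of 0 in both comparisons.

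The 14 genes of the constitutive proteasome core had small differences of the opposite sign. Their median was -0.12 in GPNA and -0.16 in BenSer, 13 and 14 of them lay below 0, and none was called. The widest were PSMA2 in GPNA (-0.26) and PSMA6 in BenSer (-0.35). PSMB5 and PSMB6, the counterparts of PSMB8 and PSMB9, were at -0.07 and -0.14 in BenSer, so the ratios above hold a small part from the constitutive gene.

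Among 23 genes that act on class I transcription, 3 were at least 1.5-fold higher in BenSer (NLRC5, IRF1 and STAT2), none was lower, and none was called in GPNA. STAT2, which relays interferon signals to the nucleus, had means of 74.5, 96.4 and 115 CPM in control, GPNA and BenSer, with log2 differences of 0.37 and 0.62. The transactivator NLRC5 had 2.92, 3.49 and 5.54 CPM, with a difference of 0.20 in GPNA and 0.74 (0.51 to 0.97) in BenSer. IRF1, an interferon-inducible factor that acts on the response element shown above, differed between the inhibitors: 0.70 in BenSer and -0.04 in GPNA. IRF9, the DNA-binding partner of STAT2, was at 0.52 in GPNA and 0.33 in BenSer, and RFX5, a subunit of the complex on the X box, at -0.09 and -0.24. The list median was -0.04 in GPNA and 0.12 in BenSer.

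Of 9 interferon genes, IFNE and IFNK were among the genes analysed. IFNE, an epithelial interferon, had means of 0.388, 0.391 and 0.826 CPM in control, GPNA and BenSer, and in BenSer, 2.13-fold control as a ratio of CPM, both columns lay above control, with a log2 difference of 0.40 (0.11 to 0.64) that was short of the call. IFNK, at 0.0782 to 0.196 CPM, was not called in GPNA and was too low to be tested in BenSer against control. Of 13 class II pathway genes 3 were analysed (CIITA, CD74 and HLA-DMA), none was called, and HLA-DMA reached the highest difference, 0.47 in BenSer. Of the class I-like ligands and receptors 13 were analysed, and only HFE, a class I-like regulator of iron uptake, was called in BenSer, at 0.60 from means of 0.583 and 1.40 CPM. The list median was -0.01 in GPNA and 0.02 in BenSer. The natural killer ligand MICB was at -0.32 and -0.22, and ULBP2, another such ligand, at 0.33 and 0.31.

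**Figure D4:**
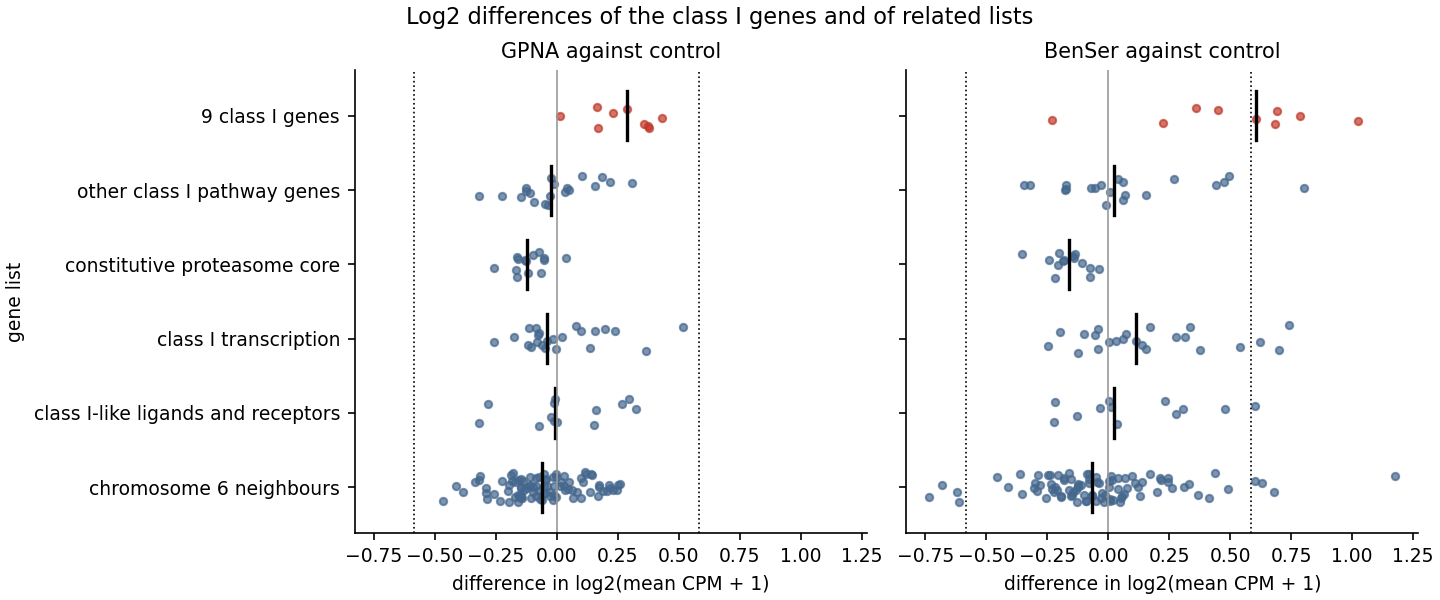
Differences in log2(mean CPM + 1) against control for the 9 class I genes (red) and for related gene lists (blue), with GPNA on the left and BenSer on the right. Each point is a gene, black bars are medians and dotted lines 1.5-fold. The median of the 9 genes lies at 0.29 and 0.61, and those of the other lists drawn lie between -0.16 and 0.12.

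The higher level was not shared by the region as a whole. Of 92 other genes whose starts lie between HLA-F and PSMB9, none of the 91 tested in GPNA was called, and 4 were called higher and 4 lower in BenSer. Among all genes, 0.34% were called higher and 0.0637% lower in GPNA, and 1.96% higher and 1.58% lower in BenSer. The median over the other genes of the region was -0.06 in GPNA and -0.07 in BenSer. The higher ones of the region in BenSer were TRIM31 (1.18), a ubiquitin ligase, HSPA1A (0.68) and HSPA1B (0.63), which encode the inducible heat shock protein HSP70 and are near-identical to each other, and NEU1 (0.60), a lysosomal sialidase. The lower ones were NRM (-0.73), a nuclear envelope protein, VARS (-0.68), the valyl-tRNA synthetase, MSH5 (-0.61) and a gene listed as XXbac-BPG252P9.9. Even within the cluster of TAP2, PSMB8, TAP1 and PSMB9, the differences in BenSer ran from -0.23 to 1.02.

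**Figure D5:**
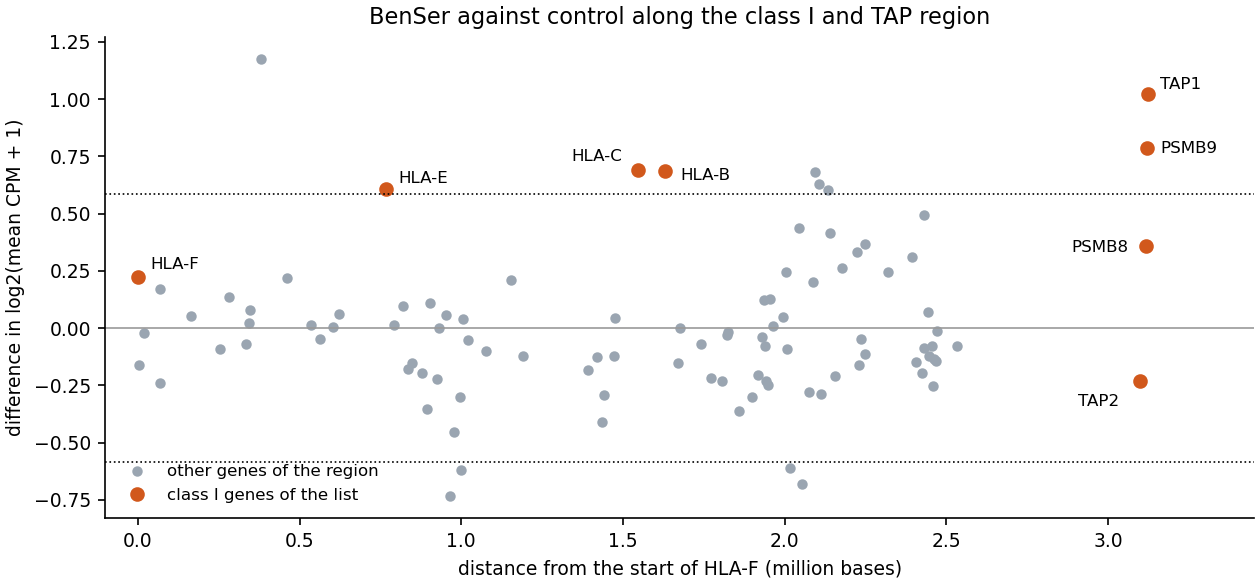
BenSer against control along the region from HLA-F to PSMB9, by distance from the start of HLA-F in units of 1000000 bases. Orange points are the 8 class I genes on chromosome 6, grey points 92 other genes, and dotted lines 1.5-fold. TAP2 at -0.23, PSMB8 at 0.36, PSMB9 at 0.78 and TAP1 at 1.02 lie close together at the right.

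The genes whose pair of log2 differences lay nearest to the median pair of the 9 genes (0.29 in GPNA and 0.61 in BenSer) were ASS1, ZNF441, RASD1, LMBR1L, TSC22D1 and ERN1. They were found among 10189 other genes with a mean of at least 5 CPM in 1 group, by Euclidean distance over the 2 comparisons, which share the control. ASS1, the argininosuccinate synthase, lay at a distance of 0.00394, with 0.29 in GPNA and 0.60 in BenSer, and ERN1, a sensor of unfolded protein, at 0.0312. In all, 54 of the 10189 genes lay within 0.1 of this median pair. The median pair is not the pair of any single class I gene. These 54 genes therefore show only that values near the median also occur outside the list.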

How the data were processed

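Per the study's methods and the labels, total RNA of PC-3 cells was made into stranded libraries, sequenced as read pairs, mapped to hg19/GRCh37.p13 and counted per gene. The submitters' processing notes name TopHat2, Bowtie2, HTSeq 0.6.2p2 and DESeq, and the strand setting of the counting is not given in the sources used here. The values deposited by the authors are CPM, reads per gene divided by the library total, in columns named as counts. Every value (100%, within 0.01 read) was a whole number of reads, so reads and totals were recovered. Of the reads, 51.6% to 52.7% lay on the 19491 listed genes (19429 names). Each table has 4 value columns a group, but only 2 match labelled samples, and the other 8 column entries were not used. The authors' fold changes, p-values and false discovery rates were not used either.

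Columns 1 and 2 of a group, whose variation beyond read sampling was 1.01% to 1.19% in highly expressed genes (under a limit of 2%), were averaged and counted as 1 sample, in place of the fit over samples that counts would allow. The study's methods speak of 4 replicates in each group, but the labels name 2 libraries and no source used here says whether these came from separate cultures. Differences are in log2(mean CPM + 1), for genes averaging 5 reads or more in either group, and a gene was called at 1.5-fold. Intervals are exact binomial (Clopper-Pearson, 95%) on the summed reads, and ratios of reads use the same method. PCR copies are not independent molecules, so these intervals cover counting error only. As alternatives, edgeR 4.0.16, DESeq2 1.42.0 and limma 3.58.1 were run with columns as samples, which compares libraries and not treatments, after a test on simulated data. On the recovered reads edgeR's quasi-likelihood test called 1300 genes higher and 1553 lower in GPNA, 3472 and 3331 in BenSer and 3399 and 3037 in BenSer against GPNA (adjusted p under 0.05). Gene positions and transcript lengths are from GENCODE 44 on GRCh37, and promoters are from RefSeq, matched to GRCh37 by sequence. The text names all 9 genes, the genes of each list that were called on at least 20 reads or were its extremes, and the 6 nearest genes. Some list genes are not reported here and were left out of the list counts. The 9 genes and the lists were chosen with earlier results of these data known. Analyses used Python 3.11.15 and R 4.3.3.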

Additional observations from a re-analysis of the deposited data

How the results depend on the processing

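In BenSer against control, 5 of the 9 class I genes were called higher, and leaving out 1 column in turn gave 4 to 5. At 2-fold only 1 (TAP1) was called, against 0.437% of all genes. No gene was called lower, but edgeR and limma with columns as samples each called 1 (TAP2), against 17.6% and 20.9% of all genes. In GPNA against control none was called higher at 1.5-fold, whichever column was left out. There 4 genes passed a looser fold (a log2 difference of 0.32), which 2.86% of all genes passed. At an adjusted p under 0.05, 6 were called by edgeR, 5 by DESeq2 and 6 by limma, against 6.9%, 2.35% and 5.24% of all genes. For BenSer against GPNA the count of 1 became 2 with a pseudocount of 0.1 (4.88% of all genes), 4 at the looser fold (6.86%), 0 at 2-fold (0.105%) and 0 to 1 when a column was left out. It was 6 with edgeR, DESeq2 and limma (17.8%, 10.2% and 17.3%), with 1 lower in edgeR and limma (15.9% and 16.4%). With the replicate block edgeR called 6 higher in GPNA (5.33% of all genes), 7 higher in BenSer (16.7%), and 6 higher (17.6%) and 1 lower (15.6%) in BenSer against GPNA. The column differences correlated by only 0.0166 to 0.023 between groups over 13240 genes, so the numbers do not pair the samples. These tests compare libraries, not treatments. Of the single genes, B2M moved beyond its counting interval with TMM and DESeq2 scaling, to 0.21 and 0.21 in GPNA and 0.50 and 0.50 in BenSer. The largest fold between columns of a group was 1.6 for HLA-F and 1.56 for PSMB9, which 57 and 90 control reads limit.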
